A study of Zea mays with 20 samples.

Results

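The comparison described here sets maize lines with an unfavorable allele in bin 6.06 (a stretch of chromosome 6 on the maize genetic map) against lines with favorable alleles, in the ear internode at the stage of the emerging tassel. It uses 8 of the 20 arrays of the study. The bin 6.06 class is made up of RIL39 and RIL71, with 2 arrays each, and the favorable class of RIL99 and RIL54, with 2 arrays each. These are recombinant inbred lines of the cross F288 x F271, picked by their alleles at 4 major loci that affect lignin content and how well cell walls degrade. RIL99 and RIL54 hold favorable alleles at all 4 loci, and RIL39 and RIL71 hold the unfavorable allele at the bin 6.06 locus. Another line, RIL118 (unfavorable in bin 9.02), and the early silking arrays of all lines share the estimate of spread, and the silking arrays of the same 4 lines are used further on. Total RNA came from untreated plants of an irrigated field crop, was amplified and labelled with biotin, and was read on an Affymetrix maize array of 17555 maize probe sets. The labels do not say whether the 2 arrays of a line came from separate plants, so p-values measure the spread between these arrays, which may be technical. Recombinant inbred lines also differ elsewhere in the genome, so bin 6.06 and every other locus at which RIL39 and RIL71 together differ from RIL99 and RIL54 cannot be told apart here.

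The ear internode is the stem segment that carries the ear. At tassel emergence its cells finish elongating and its vessels and fibres lay down secondary walls of cellulose, xylan and lignin, the phenolic polymer that makes walls stiff and hard to digest. Lignin monomers are made from phenylalanine and joined in the wall by laccases and peroxidases, while expansins loosen walls that are still growing. Maize stems also make defence compounds, among them the benzoxazinoids, which are built from indole and stored as glucosides.

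On the 8 tassel arrays, values above 5 on the log2 scale were read for 57.3% to 58.0% of maize probe sets. The 2 arrays of a line correlated at 0.994 in RIL39, 0.973 in RIL99, 0.962 in RIL54 and 0.956 in RIL71. The first principal component of the tassel arrays carried 35.3% of the variance and placed RIL99 at one end and RIL39 at the other, with RIL54 and RIL71 between them. All 4 class arrays lay above all 4 favorable arrays on it, RIL71 at -1.21 and 3.47 and RIL54 at -15.1 and -24.4. The second carried 31.1% and set RIL54 and RIL71 apart from RIL99 and RIL39. RNA quality was read from control transcripts as 5′ minus 3′ signal on the log2 scale. This index was -5.06 and -6.47 in RIL39, against -4.54 and -3.77 in RIL71, -3.02 and -4.09 in RIL99 and -4.30 and -4.39 in RIL54. The RIL39 arrays were thus the lowest of the 8. The 6 stem markers measured (cesa10, cesa11, CesA12, bk2, cncr1 and BM1) lay between 11.94 and 14.26 on all 8 arrays. Of 10 kernel markers 7 stayed under a log2 value of 3 on all 8 arrays. The other 3, sh1, gz27 and bt2, were above 6 on all 8 arrays, reaching 12.54, 8.83 and 7.45. The 2 pollen markers on the array, EXPB9 and C5, stayed under 3 on all 8 arrays, and neither was tested. PRO5 and PRO4, of the pollen gene list, were high, with class means of 13.40 and 13.14 and favorable means of 13.51 and 13.23.

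**Figure D1:**
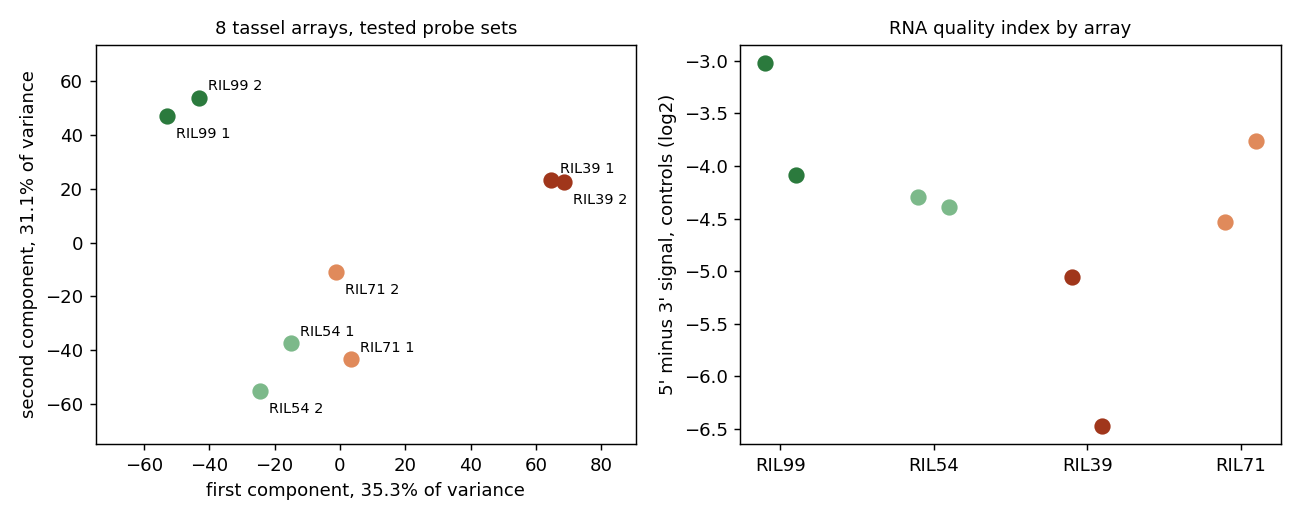
Left, the 8 tassel arrays on the first 2 principal components of the tested probe sets (axes: component scores, with the share of variance). Right, the 5′ minus 3′ signal of control transcripts on each array (log2). RIL99 and RIL39 lie at the ends of the first component, and RIL39 has the lowest signal, down to -6.47.

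In the test across 11033 probe sets, 1573 differed between the classes (14.3% called), 899 higher (8.15% called higher) and 674 lower (6.11% called lower) in the bin 6.06 class. Throughout, called means a Benjamini-Hochberg adjusted p under 0.05 in limma. A count of 1084 (9.83%) also took the same direction in all 4 pairs of a bin 6.06 line and a favorable line, 628 higher (5.69%) and 456 lower (4.13%). Among these, 313 were at least 2-fold higher (2.84%) and 196 at least 2-fold lower (1.78%). All arrays of one class lay clear of all arrays of the other at 865 probe sets (7.84%), called or not. These calls rest on the spread between arrays of a line. With line means as samples, 2 lines against 2, the count was 14 (0.127% called), and when the line entered as a random block it was 40 (0.363% called). The smallest two-sided p that an exact permutation of 2 lines against 2 can give is 0.333. Leaving out 1 array gave 1029 calls without RIL99 replicate 1, 1018 without RIL39 replicate 1 and 930 without RIL39 replicate 2. The amount of RNA in a cell and the number of cells of a type cannot be told apart in these bulk samples. Whether the probes match the alleles of each line equally well was not tested.

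The 14 probe sets called with line means have no gene in the annotation used here. Of these, 6 were higher and 8 lower in the class. Among the lower ones Zm.3284.2.A1_a_at and Zm.3284.1.A1_x_at share the number 3284 in their names, so probe sets counted here may not all be separate genes. The largest fall was Zm.3284.2.A1_a_at, with values of at most 2.03 on all 4 arrays of RIL39 and RIL71. Its values were 11.12 and 10.98 in RIL99 and 11.41 and 10.83 in RIL54. The largest rise was Zm.16524.6.A1_at, at 9.71 and 9.72 in RIL39, 10.14 and 9.18 in RIL71, and 2.82 to 3.13 on the 4 favorable arrays. The class differences were -9.08 (adjusted p = 0.0246 in limma on line means) and 6.68 (adjusted p = 0.0306). Both probe sets showed the same pattern at early silking, with 2.01 to 2.04 against 11.50 to 11.80 for the first and 10.86 to 11.59 against 3.02 to 3.12 for the second. In all, 8 probe sets were above 5 on all 4 class arrays and under 3 on all 4 favorable arrays, and 4 of them met the same limits at silking. The opposite pattern held for 10 probe sets, 5 of them also at silking. The probe sets named here were picked after their values were seen.

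The annotation lists a single gene for 960 of the tested probe sets, and these stand for 808 genes, each read at its brightest probe set. Of the 808, 111 were called (13.7%), 59 higher (7.3%) and 52 lower (6.44%), and 77 (9.53%) were also alike in direction in the 4 line pairs, 41 higher and 36 lower. The genes below are the largest of these, at most 3 such genes from any list, and all measured benzoxazinoid and wall genes.

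Genes with a role in defence were called in both directions, though 4 of 6 listed defence proteins were not called. The steepest rise among the named genes was that of rip2 (gene 541814, chromosome 7), which encodes a ribosome-inactivating protein that cuts ribosomal RNA. It was at 7.67 and 7.07 in RIL39, at 8.82 and 7.22 in RIL71, and at 2.14 to 2.19 on the 4 favorable arrays. The favorable arrays lay at the floor of the array, at early silking too (2.15 to 2.18), so the size of the difference is limited by that floor. Means were 7.69 ± 0.79 and 2.16 ± 0.02 (SD, n = 4 arrays each), a difference of 5.53 (SE 0.40, limma adjusted p = 9.97e-07), or 46.2-fold on the scale of the array. Among the named genes it alone was still called when lines were a random effect (adjusted p = 0.00484), and with line means the value was 0.0529.

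Of 4 measured benzoxazinoid genes, 2 were higher in the class and 2 were not called, beside 7.3% higher among all genes. bx1 (gene 542117, chromosome 4) makes the indole that opens the pathway. It was at 12.08 and 11.98 in RIL39, 9.22 and 9.61 in RIL71, 6.83 and 5.70 in RIL99, and 9.35 and 4.89 in RIL54. The classes overlapped at the first RIL54 array, which lay above a RIL71 array. The means of 10.72 ± 1.51 and 6.69 ± 1.94 (SD, n = 4) differed by 4.03 (SE 0.74, limma adjusted p = 0.0029), 16.3-fold. bx6 (gene 541977, chromosome 4), a dioxygenase that hydroxylates the benzoxazinoid ring, was at 11.82 and 11.80 in RIL39 and 10.34 and 10.33 in RIL71. Its favorable values were 7.86 and 7.02 in RIL99 and 9.40 and 10.39 in RIL54. The difference was 2.40 (SE 0.36, adjusted p = 0.000623), with overlap at the second RIL54 array, and a dimmer bx6 probe set gave 2.07 (SE 0.41, adjusted p = 0.00447). Without RIL99 the bx6 call was lost (1.18, adjusted p = 0.108). igl1 (gene 541855), which releases free indole as a volatile, was at 6.63 to 7.06 on all 8 arrays, a difference of 0.11 (SE 0.12, adjusted p = 0.575). glu1 (gene 542414), the glucosidase that frees the active benzoxazinoid, differed by -0.47 (SE 0.67, adjusted p = 0.702), at 8.93 and 9.39 in RIL39 but 12.99 and 12.49 in RIL71. The median difference of the 4 genes was 1.26, against -0.03 over the 808 genes.

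**Figure D2:**
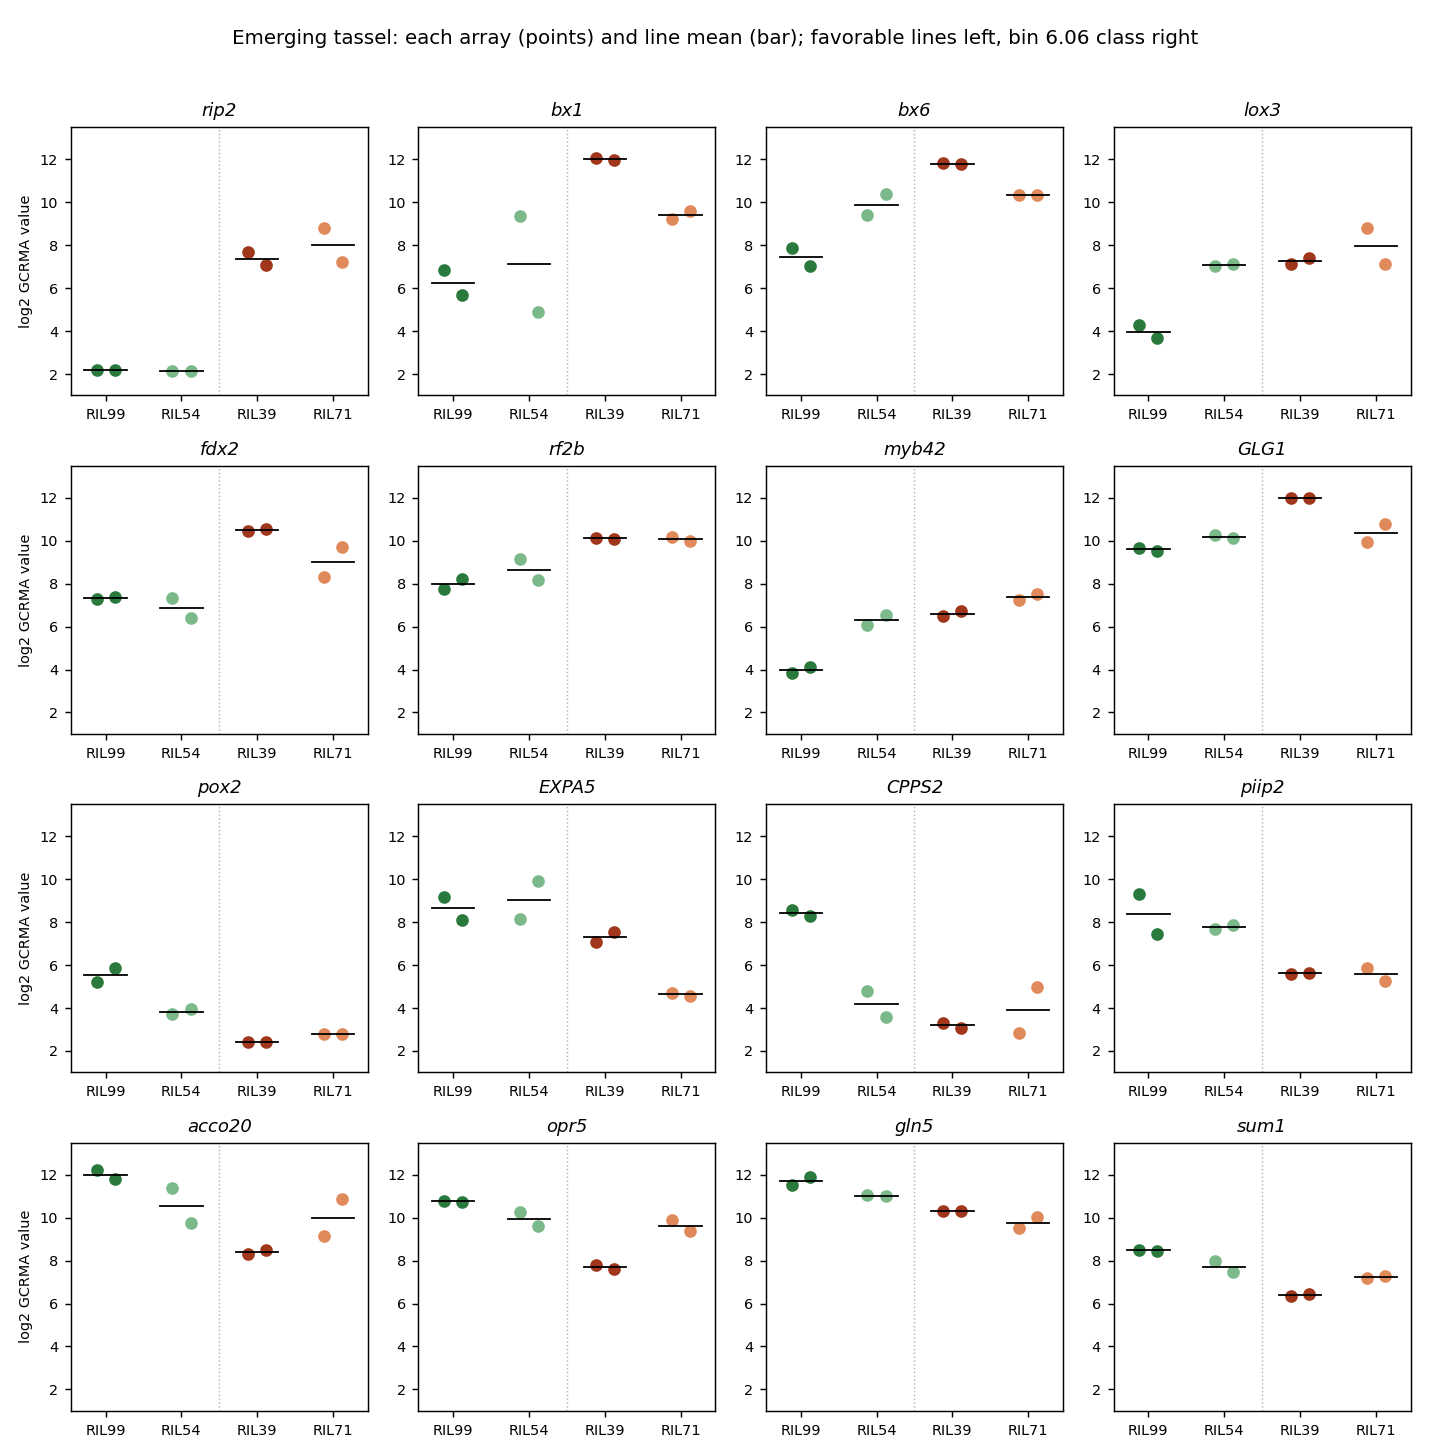
Log2 GCRMA values of 16 named genes on each tassel array (points) with the mean of each line (bars), favorable lines left of the dotted line and the bin 6.06 class right of it. For rip2 the favorable arrays sit at the floor (2.14 to 2.19), while for bx6, lox3 and myb42 RIL54 lies nearer to the class than RIL99 does.

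The oxylipin genes, which make jasmonates and related lipid signals, split. lox3 (gene 542495, chromosome 1), a lipoxygenase that adds oxygen to fatty acids, was at 7.12 and 7.39 in RIL39, 8.80 and 7.15 in RIL71, 4.27 and 3.69 in RIL99 and 7.05 and 7.12 in RIL54. RIL54 lay just under the bottom of the class, and RIL99 was far lower. The class difference was 2.08 (SE 0.38, limma adjusted p = 0.00281), and without RIL99 it was 0.53 (adjusted p = 0.509). opr5 (gene 732829, chromosome 2), of the oxophytodienoate reductase family, was lower in the class, at 7.78 and 7.60 in RIL39 and 9.87 and 9.37 in RIL71, against 10.76 and 10.76 in RIL99 and 10.29 and 9.61 in RIL54. The difference was -1.70 (SE 0.22, adjusted p = 0.000245), and it differed between the 2 class lines (RIL39 minus RIL71 -1.93, adjusted p = 0.00175). Without line RIL39 the opr5 call was lost (-0.73, adjusted p = 0.173). Of 8 measured genes of the list, 2 were called higher and 1 lower, beside 7.3% higher and 6.44% lower among all genes. The other gene called higher was aoc1, the allene oxide cyclase, at 0.96 (SE 0.21, adjusted p = 0.00864), which did not take the same direction in all 4 pairs. The median of the list was 0.14.

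CPPS2, acco20 and piip2 were lower in the class. CPPS2, also called an2 (gene 542165, chromosome 1), makes ent-copalyl diphosphate for diterpenoid defence compounds. It was at 3.32 and 3.06 in RIL39, 2.85 and 4.98 in RIL71, 8.58 and 8.31 in RIL99 and 4.82 and 3.57 in RIL54. The high values were those of RIL99, and RIL54 overlapped the class. The difference of -2.76 (SE 0.61, limma adjusted p = 0.00948) was -0.64 without RIL99 (adjusted p = 0.632). Without line RIL39 it was -2.40 and not called (adjusted p = 0.0888). acco20 (gene 542137, chromosome 4), an ACC oxidase of the last step to ethylene, was at 8.32 and 8.52 in RIL39, 9.15 and 10.87 in RIL71, 12.23 and 11.79 in RIL99 and 11.39 and 9.74 in RIL54. Its difference was -2.08 (SE 0.39, adjusted p = 0.00302), with RIL71 and RIL54 overlapping, and the call was lost without RIL99 (-1.35, adjusted p = 0.0882). The acco20 call was lost without line RIL39 too (-1.28, adjusted p = 0.165). piip2 (gene 541647, chromosome 5) did not overlap, at 5.27 to 5.89 in the class against 7.44 to 9.33 in the favorable lines, a difference of -2.49 (SE 0.71, adjusted p = 0.0354). The piip2 call was lost with the 5′ minus 3′ signal as a covariate (adjusted p = 0.0825). It was also lost when any 1 array other than RIL99 replicate 2 was left out (adjusted p = 0.0581 to 0.142). The defence protein list had 1 gene called higher, rip2, 1 lower, piip2, and 4 not called (chn1, wip1, prp2 and prp4), beside 13.7% called among all genes.

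The measured genes that build lignin monomers and cellulose did not pass the test at this stage, beside 13.7% called among all genes. With so few genes in each list, the absence of calls does not set these lists apart from that share. None of the 2 phenylpropanoid, 3 monolignol and 4 secondary-wall cellulose genes had an unadjusted limma p under 0.05 either. PAL1 (gene 542258, chromosome 5), a phenylalanine ammonia lyase at the entry to the phenylpropanoid pathway, was at 13.76 to 13.86 in the class and 13.73 to 14.01 in the favorable lines, a difference of -0.06 (SE 0.11, limma adjusted p = 0.785). The 4-coumarate ligase LOC542166 (chromosome 5), which activates the acids, differed by -0.48 (SE 0.28, adjusted p = 0.29). Of the monolignol genes, BM1 (gene 542663, chromosome 5), the cinnamyl alcohol dehydrogenase behind the brown midrib phenotype of its mutant, differed by -0.14 (SE 0.10, adjusted p = 0.359). The cinnamoyl-CoA reductases cncr1 (gene 542463) and ccr2 (gene 542735) differed by -0.32 (SE 0.15, adjusted p = 0.193) and -1.13 (SE 0.74, adjusted p = 0.347). Of these 5 genes cncr1 alone had the same sign in all 4 line pairs. The ccr2 values were scattered, at 4.30 and 4.40 in RIL39, 6.36 and 4.06 in RIL71, 6.69 and 7.34 in RIL99 and 3.33 and 6.29 in RIL54. For BM1 the favorable lines differed from each other, RIL54 minus RIL99 being -0.50 (adjusted p = 0.0247), and without RIL54 BM1 was called (-0.40, adjusted p = 0.0347). The cellulose synthases of secondary walls differed by -0.11 (cesa10), -0.21 (cesa11) and -0.13 (CesA12), and bk2, of the COBRA family, whose mutant has brittle stalks, by -0.27, with adjusted p from 0.70 to 0.868. None of 6 primary-wall cellulose synthases was called in limma, nor had any an unadjusted p under 0.05, with differences of -0.24 (cesa6) to 0.25 (cesa7).

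Of 3 listed oxidases that can join lignin monomers in the wall 2 were called lower, beside 6.44% of all genes, and of 2 listed MYB regulators 1 was called higher, beside 7.3%. pox2 (gene 542571, chromosome 1), a class III peroxidase, was at 2.41 and 2.43 in RIL39, 2.79 and 2.77 in RIL71, 5.21 and 5.87 in RIL99 and 3.71 and 3.94 in RIL54. The classes did not overlap, and the 4 class arrays lay under 3, near the floor. The difference was -2.09 (SE 0.33, limma adjusted p = 0.00109). RIL54 minus RIL99 was -1.72 (adjusted p = 0.0264), and without RIL99 the call was lost (-1.23, adjusted p = 0.0738). PER42 (gene 100101533, chromosome 7), a peroxidase too, was at 11.47 and 11.54 in RIL39 and 9.40 and 8.91 in RIL71, against 11.29 to 12.18 in the favorable lines. Its difference of -1.46 (SE 0.29, adjusted p = 0.00479) came with a RIL39 minus RIL71 difference of 2.34 (adjusted p = 0.00274), and RIL39 did not lie below both favorable lines. The laccase LAC1 (gene 606456, chromosome 3) was at 7.47 to 7.95 in the class and 6.60 to 7.63 in the favorable lines, a difference of 0.53 (SE 0.32, adjusted p = 0.307). myb42 (gene 100101513, chromosome 4), a MYB factor known from Arabidopsis plants that overexpress it as a repressor of lignin genes, was at 6.51 and 6.72 in RIL39, 7.25 and 7.51 in RIL71, 3.84 and 4.10 in RIL99 and 6.07 and 6.56 in RIL54. The RIL54 values overlapped those of RIL39 and the RIL99 values lay far below it. The class difference was 1.85 (SE 0.25, adjusted p = 0.000264). Without RIL99 it was 0.68 (adjusted p = 0.175), and RIL54 minus RIL99 was 2.34 (adjusted p = 0.000672). Its relative myb31 (gene 100037768, chromosome 2) differed by 0.50 (SE 0.28, adjusted p = 0.27).

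Wall-loosening genes gave 2 calls of 9, both lower, beside 6.44% lower among all genes. EXPA5 (gene 541907, chromosome 6), an alpha-expansin, was at 7.07 and 7.56 in RIL39, 4.70 and 4.58 in RIL71, 9.17 and 8.11 in RIL99 and 8.17 and 9.94 in RIL54. All 4 class arrays lay below all 4 favorable arrays, RIL71 the furthest. The difference was -2.87 (SE 0.56, limma adjusted p = 0.00417), with RIL71 at -4.21 (adjusted p = 0.00189) and RIL39 at -1.53 (adjusted p = 0.126). xet1 (gene 542312, chromosome 5), a xyloglucan endotransglycosylase that cuts and rejoins hemicellulose chains, differed by -0.91 (SE 0.21, adjusted p = 0.0128), though not in the same direction in all 4 pairs. Its call was lost without RIL99 replicate 1 (adjusted p = 0.0502), without RIL39 replicate 2 (0.0592) and in a fit of the 8 tassel arrays alone (0.092). The xet1 call was also lost without line RIL39 (-0.32, adjusted p = 0.639) and without line RIL99 (-0.51, adjusted p = 0.237). The beta-expansins expB4, expB6, expB7 and expB8 differed by -1.46, -0.58, -0.86 and -0.63 without passing the test (adjusted p = 0.0713 to 0.415). For expB4 (gene 541909) RIL39 was at 6.88 and 6.90, and the other 3 lines at 9.03 to 10.61. RIL39 alone against the favorable lines gave -3.08 for expB4 (adjusted p = 0.0036), and in the 8 tassel arrays alone its class difference was called (adjusted p = 0.00276). expB6 too was called in the 8 tassel arrays alone (adjusted p = 0.0362). expB7 was called without RIL71 replicate 2 (-1.24, adjusted p = 0.0456), without RIL71 (-1.64, adjusted p = 0.025) and without RIL54 (-1.60, adjusted p = 0.0317). The alpha-expansins expa1, expA3 and expA4 differed by -0.08, 0.38 and 1.13, none called. Dimmer probe sets gave -0.31 for expA4 and -0.44 for expB8, neither called (adjusted p = 0.784 and 0.684). The median of the 9 genes was -0.63.

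**Figure D3:**
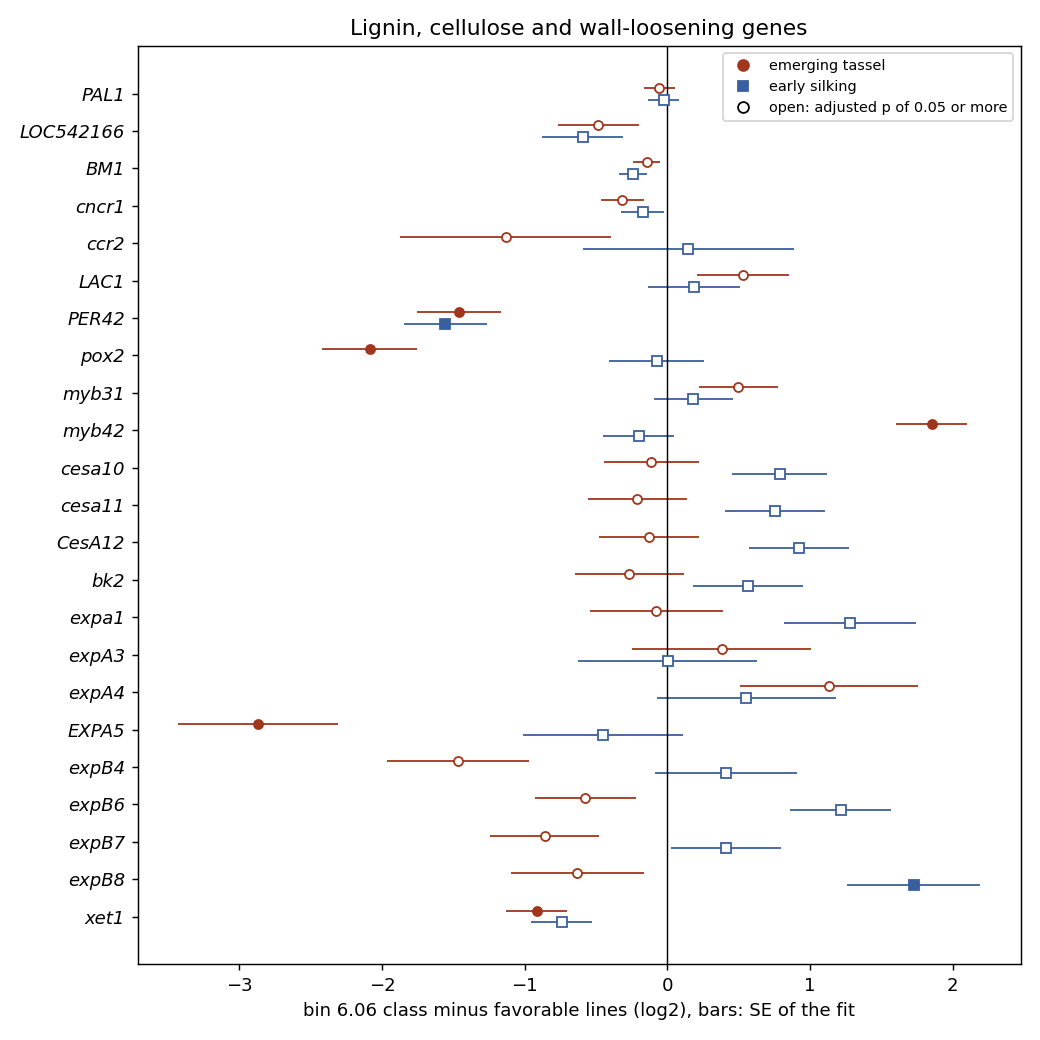
Class difference (bin 6.06 class minus favorable lines, log2, bars SE of the fit) for 23 lignin, cellulose and wall-loosening genes at emerging tassel (circles) and early silking (squares), filled where the adjusted p was under 0.05. At emerging tassel only PER42, pox2, myb42, EXPA5 and xet1 are filled, with PAL1, BM1 and the cellulose synthases near 0.

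Several genes of carbon fixation and plastid metabolism were higher in the class. fdx2 (gene 541619, chromosome 6), a ferredoxin that passes electrons on from photosystem I, was at 10.47 and 10.57 in RIL39, 8.32 and 9.73 in RIL71, 7.27 and 7.36 in RIL99 and 7.33 and 6.42 in RIL54. The classes did not overlap. Its difference was 2.68 (SE 0.45, limma adjusted p = 0.00152), and the call was lost without line RIL39 (1.93, adjusted p = 0.0584). pep1 (gene 542372, chromosome 9), the phosphoenolpyruvate carboxylase of C4 photosynthesis, was at 8.05 and 8.15 in RIL39, 5.59 and 7.36 in RIL71, 5.09 and 3.18 in RIL99 and 6.23 and 2.56 in RIL54. The arrays of RIL54 disagreed by more than the class difference of 3.02 (SE 0.93, adjusted p = 0.0481). The pep1 call was lost with the 5′ minus 3′ covariate (adjusted p = 0.111) and when any 1 array but RIL54 replicate 1 or RIL71 replicate 1 was left out (adjusted p = 0.0589 to 0.174). rbcs1 (gene 542212, chromosome 4), the small subunit of Rubisco, differed by 0.63 (SE 0.19, adjusted p = 0.0422). That call too was lost with the covariate (adjusted p = 0.0956) and without any 1 of the same 6 arrays (adjusted p = 0.0799 to 0.138). por (gene 542054), protochlorophyllide reductase of chlorophyll synthesis, was at 11.61 and 11.48 in RIL39, 9.10 and 10.53 in RIL71 and 8.91 to 9.50 in the favorable lines. The por difference was 1.42 (SE 0.34, adjusted p = 0.014), and its call was lost without RIL39 replicate 1 (adjusted p = 0.0502) or RIL54 replicate 2 (0.0511). It was also lost without line RIL39 (0.55, adjusted p = 0.601) and without line RIL54 (1.23, adjusted p = 0.0565).

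Calls in these lists were few beside the number of genes measured. Of 11 listed photosystem and chlorophyll genes 1, fdx2, was called (median 0.34), and of 10 C4 and Calvin cycle genes 2, pep1 and rbcs1, were called (median 0.59), beside 13.7% of all genes. por was not in either list. No gene of either list was called lower. At an unadjusted limma p under 0.05, 3 photosystem genes were higher and 1 lower, and 4 C4 genes were higher and 0 lower. The share of all genes at that unadjusted threshold is not given here, so these counts cannot be set against it. Of 8 tested leaf markers pep1 and rbcs1 themselves were called, and the other 6 were not. The log2 of the summed level of the leaf markers was 15.31 to 16.35 in the class against 15.30 to 15.87 in the favorable lines. The C4 malic enzyme ME1 was under 3 on all 8 arrays. Meristem markers had 2 of 4 called higher, beside 7.3% of all genes, with a summed level of 10.49 to 11.68 against 10.53 to 10.96. The called ones, knox7 and lg3, were not alike in all 4 pairs. Against the favorable lines knox7 differed by 0.86 in RIL39 and 0.08 in RIL71, and lg3 by 1.21 and -0.10. The part of leaf or meristem tissue in these results was not tested.

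Starch and nitrogen genes changed in part. GLG1 (gene 542295, chromosome 1), also listed as agpsl1, a subunit of the ADP-glucose pyrophosphorylase that supplies starch synthesis, was at 11.98 or above on both RIL39 arrays, 9.94 and 10.78 in RIL71, 9.69 and 9.51 in RIL99 and 10.27 and 10.13 in RIL54. Only RIL39 lay clear of the favorable lines. The class difference was 1.27 (SE 0.22, limma adjusted p = 0.00178), and RIL39 minus RIL71 was 1.63 (adjusted p = 0.00461). sbe1 (gene 542315, chromosome 5), a starch branching enzyme, was at 9.13 and 9.26 in RIL39, 8.21 and 8.10 in RIL71 and 6.99 to 8.04 in the favorable lines, a difference of 1.13 (SE 0.21, adjusted p = 0.0029) without overlap. The sbe1 call was lost without line RIL39 (0.61, adjusted p = 0.235), as was that of GLG1 (0.46, adjusted p = 0.447). GLG1 was not in the starch list. Of the 7 genes of that list 2 were called, both higher (sbe1 and AGP2, the latter at 1.46 but not alike in all 4 pairs), beside 7.3% higher among all genes, and the median was 0.47. Of 16 amino acid and nitrogen genes 3 were called higher and 1 lower (median -0.05), beside 7.3% higher and 6.44% lower among all genes. asn1 was called at 1.79 (limma adjusted p = 0.000897) but was not alike in all 4 pairs. Among glutamine synthetases, which fix ammonium, the 2 called genes moved apart, while GLN6, gln2 and gln3 were not called. gln5 (gene 542401, chromosome 4), a cytosolic form, was at 10.30 and 10.30 in RIL39, 9.50 and 10.05 in RIL71, 11.55 and 11.92 in RIL99 and 11.07 and 10.99 in RIL54. It was lower by 1.34 (SE 0.17, adjusted p = 0.000145), with no overlap. gln1 (gene 542746, chromosome 10), the plastid form, differed by 1.08 (SE 0.31, adjusted p = 0.0363). That call was lost with the 5′ minus 3′ covariate (adjusted p = 0.0795) and without any 1 array but RIL54 replicate 1 or RIL71 replicate 1 (adjusted p = 0.0888 to 0.114). mir2 (gene 541654, chromosome 6), a cysteine protease, had a difference of 1.23 (SE 0.26, adjusted p = 0.00619), and its call was lost in the 8 tassel arrays alone (adjusted p = 0.0706) and without RIL99 (0.73, adjusted p = 0.159).

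Other large differences fell outside those pathways. rf2b (gene 542567, chromosome 4), a mitochondrial aldehyde dehydrogenase, was at 9.99 to 10.17 on all 4 class arrays, 7.74 and 8.23 in RIL99 and 9.15 and 8.17 in RIL54. The class was uniform and clear of the favorable lines, a difference of 1.77 (SE 0.31, limma adjusted p = 0.00189). SI397 (gene 542681, chromosome 3) exceeded the favorable lines by 2.28 (SE 0.40, adjusted p = 0.00207), at 6.27 to 6.86 against 3.38 to 5.71. aox1 (gene 542073, chromosome 5), the alternative oxidase of mitochondria, was called at -1.65 (SE 0.16, adjusted p = 1.84e-05), but that difference was carried by RIL54 (5.73 and 6.11). RIL99 (2.80 and 2.81) lay with the class (2.54 to 2.80), and without RIL54 the value was -0.09 (adjusted p = 0.806). sum1 (gene 542745, chromosome 3) was lower by 1.28 (SE 0.19, adjusted p = 0.000639), at 6.34 to 7.31 in the class and 7.47 to 8.51 in the favorable lines. GP (gene 541968, chromosome 4) was lower by 1.39 (SE 0.24, adjusted p = 0.00193), at 8.36 to 8.98 against 9.70 to 10.42. RR5 (gene 541631), a response regulator of cytokinin signalling, was at 7.29 to 7.44 in the class and 7.72 to 9.07 in the favorable lines, a difference of -1.15 (SE 0.23, adjusted p = 0.00513). Its call was lost without line RIL99 (-0.73, adjusted p = 0.123). RR5 was the 1 call among 14 response regulator genes measured, beside 13.7% called among all genes.

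A few genes of nucleotide metabolism and chromatin were also called lower. aprt1 (gene 542148, chromosome 2), which salvages adenine, differed by -1.23 (SE 0.32, limma adjusted p = 0.0241), and UMPS (gene 732794, chromosome 3), of pyrimidine synthesis, by -1.16 (SE 0.35, adjusted p = 0.0428). A dimmer UMPS probe set gave -0.23 (adjusted p = 0.37). Of 27 chromatin genes 3 were called, all lower, beside 6.44% lower among all genes, and 13 of the 27 had a difference above 0. hac106 (gene 542083, chromosome 7), a histone acetyltransferase, differed by -0.85 (SE 0.19, adjusted p = 0.00837), with values of 3.38 to 5.32. Its call was lost in the 8 tassel arrays alone (adjusted p = 0.0709) and without line RIL99 (-0.42, adjusted p = 0.266). The nucleosome assembly genes nfa103 (gene 541933) and nfa104 (gene 542654) differed by -0.61 (adjusted p = 0.0348) and -0.81 (adjusted p = 0.0389), and a second nfa104 probe set gave -1.58 (adjusted p = 0.00407). The calls of aprt1, UMPS, nfa103 and nfa104 were lost when single arrays were left out, 5, 6, 5 and 7 of the 8 in turn, with adjusted p up to 0.11, 0.176, 0.156 and 0.148. Omitting RIL39 replicate 2 or RIL71 replicate 1 ended each of these 4 calls. The 5′ minus 3′ covariate ended those of aprt1 (adjusted p = 0.0601) and nfa103 (0.088).

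Heat shock genes were called lower in 3 of 5 cases (median -1.34), beside 6.44% of all genes: hsp22 at -2.43, hsp18f at -1.80 and hsp101 at -1.34, with adjusted p = 0.00285, 0.000307 and 0.0275 in limma. None of them took the same direction in all 4 line pairs. For hsp22 (gene 542602, chromosome 4), a small heat shock protein of mitochondria, RIL99 stood out at 12.28 and 11.72, while RIL54 was at 8.68 and 9.51, RIL71 at 8.03 and 10.31 and RIL39 at 7.09 and 7.05. Of 16 glutathione transferases 1 was called higher (GST25 at 2.72, adjusted p = 0.00244) and 1 lower (gst5 at -0.92, adjusted p = 0.0099). Neither was alike in all 4 pairs, and among all genes 7.3% were called higher and 6.44% lower. No call was made in limma among 13 ribosomal protein genes, 10 tubulins, 9 plasma membrane aquaporins, 9 signalling kinases or 7 cell division genes, beside 13.7% called among all genes. At an unadjusted p under 0.05 they numbered 3, 0, 0, 2 and 2, with no share of all genes at that threshold to set beside them. The genes of this paragraph other than hsp22, with aoc1, AGP2, asn1, knox7 and lg3 above, were named after their values were seen.

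**Figure D4:**
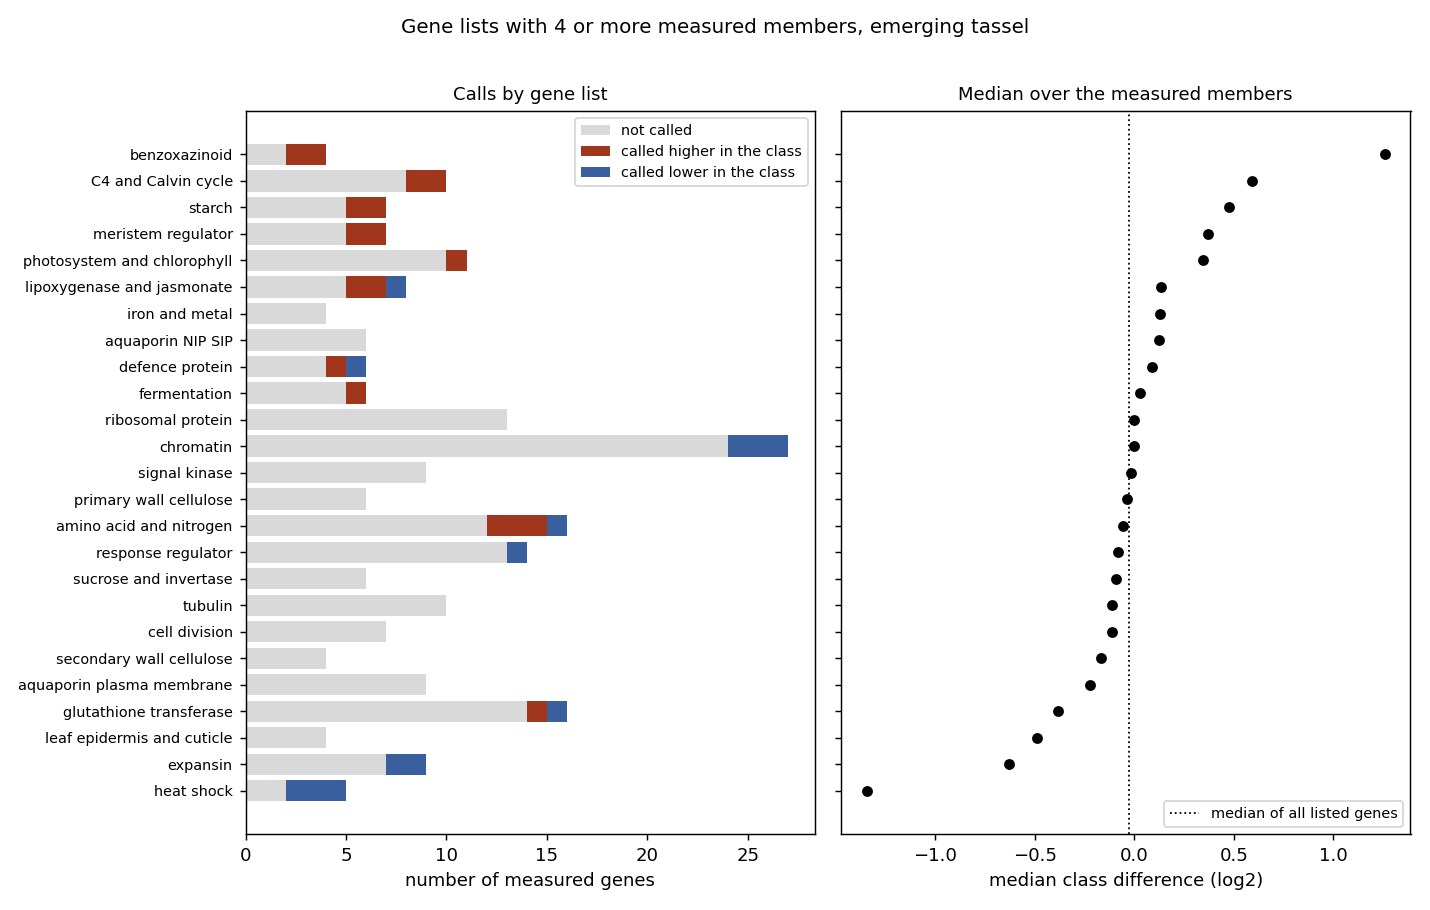
Gene lists with 4 or more measured members at emerging tassel. Left, the number of genes not called (grey), called higher (red) and called lower (blue) in the bin 6.06 class; right, the median class difference (log2) with the median of all 808 genes dotted at -0.03, the list medians running from -1.34 (heat shock) to 1.26 (benzoxazinoid).

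The 2 lines of the class contributed unequally. RIL39 against the favorable lines gave 2499 calls (22.7%) and RIL71 733 (6.64%). Both comparisons share the favorable arrays, and 413 probe sets were called in both with the same sign. Without RIL39 replicate 1 or 2 the RIL39 count was 1106 or 840. RIL39 and RIL71 differed from each other at 1203 probe sets (10.9%), and RIL54 differed from RIL99 at 1842 (16.7%), more than the 1573 calls between the classes. Of the 24 genes with the largest rises and falls, rip2, bx6, SI397, lox3, myb42, rf2b, mir2, sum1, gln5, GP, aox1 and pox2 were called in each class line alone. bx1 was at 5.33 in RIL39 (adjusted p = 0.00144) and 2.73 in RIL71 (adjusted p = 0.114), and their difference of 2.61 was not called (adjusted p = 0.138). EXPA5 was the 1 gene of the 24 called in RIL71 and not in RIL39. The RIL39 minus RIL71 difference was itself called for por (1.73, adjusted p = 0.0359), GLG1, opr5 and EXPA5 (2.67, adjusted p = 0.0491). Of the 42 called named genes, 25 lost the call without RIL39, 21 without RIL99, 10 without RIL54 and 3 without RIL71, while rip2, SI397, rf2b, sum1, gln5 and GP kept it in each of these cases. RIL39 had both the lowest 5′ minus 3′ signal and the larger count, and that signal cannot be told apart from the line here. With the signal as a covariate the RIL39 count was 1738 and the RIL71 count 833.

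**Figure D5:**
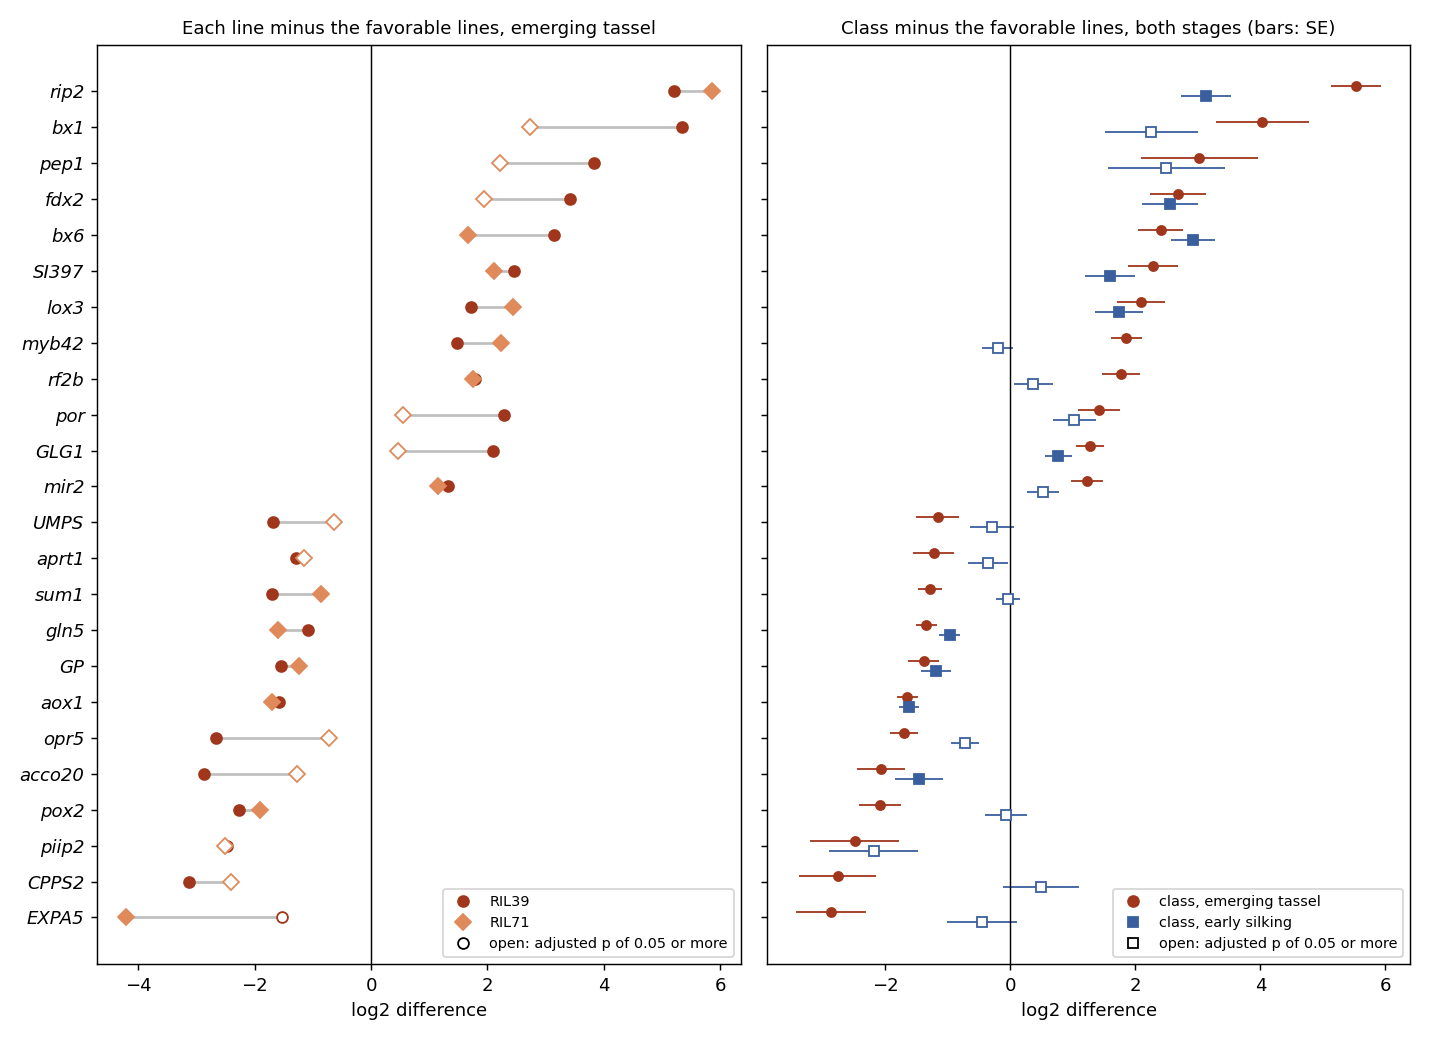
The 24 named genes with the largest rises and falls. Left, the log2 difference of RIL39 (circles) and RIL71 (diamonds) from the favorable lines at emerging tassel; right, the class difference at emerging tassel (circles) and early silking (squares) with SE bars, filled where the adjusted p was under 0.05. bx1, por, GLG1, opr5 and EXPA5 differ most between the class lines, and myb42 and pox2 lie near 0 at silking (-0.20 and -0.07).

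The same lines at early silking show how far the class difference was shared by the later stage. There 967 probe sets were called (8.76%), and the count was 622 when RIL99 silking replicate 2 was left out. At both stages and with the same sign, 560 were called, which is 35.6% of the tassel calls and 57.9% of the silking calls, and 8 were called with opposite signs. Among the named genes called at silking as well, with the same sign, were rip2 (3.13, limma adjusted p = 0.000219), bx6 (2.92, adjusted p = 0.000134), fdx2 (2.56, adjusted p = 0.00267), lox3 (1.74, adjusted p = 0.0121) and gln5 (-0.97, adjusted p = 0.00236). So were aox1 (-1.62), hac106 (-1.69), SI397 (1.59), RR5 (-1.13), GP (-1.19), acco20 (-1.46), PER42 (-1.55), GLG1 (0.77) and tha9 (0.57), with adjusted p from 2.29e-05 to 0.0477. hsp22 was called with the opposite sign (1.94, adjusted p = 0.0155). The change of the class difference between stages was called for 89 probe sets (0.807%). Omitting single arrays raised that count to 206 (RIL54 at tassel, replicate 1), 152 (RIL71 at tassel, replicate 2) and 150 (RIL54 at silking, replicate 2). Omitting an array of RIL39 at tassel lowered it to 59 or 55.

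Of the named genes, myb42, ivr2, hsp22 and b3gat3 were among the 89. So was hsp18f, named after its values were seen, with -1.80 at tassel and 0.21 at silking (limma adjusted p of the change = 0.0143). myb42 differed by 1.85 at tassel and -0.20 at silking, where RIL39 was at 7.37 and 7.50, RIL71 at 9.07 and 8.66, RIL99 at 8.73 and 8.91 and RIL54 at 8.29 and 7.47. The change was -2.05 (limma adjusted p = 0.0136), and RIL99, the lowest line at tassel, was among the highest at silking. pox2, with a change of 2.01, did not pass (adjusted p = 0.0719), its silking values all being 2.41 to 2.79. ivr2 (gene 542324, chromosome 5), a soluble acid invertase that splits sucrose, was at 11.57 to 13.07 in the class and 12.43 to 13.12 in the favorable lines at tassel, a difference of -0.69 (SE 0.28, adjusted p = 0.13). At silking it was at 6.86 to 7.71 against 1.88 to 2.68, and the change was 5.82 (adjusted p = 5.67e-06), limited by the floor of the favorable arrays. For b3gat3 (gene 606447) the tassel difference of -2.69 was carried by RIL99 alone, at 7.90 and 7.43 against 2.28 to 2.31 in the other 3 lines.

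Genes on chromosome 6, which carries the bin, were called at a share close to that over all chromosomes. Of 72 measured genes there 10 were called (13.9%), against 106 of 779 (13.6%) on all 10 chromosomes, and 7 of the 10 were alike in the 4 line pairs, 3 higher and 4 lower. The shares on the other chromosomes ran from 9.26% on chromosome 10 to 17.8% on chromosome 4. fdx2 was the first of the 72 in gene order along the chromosome, mir2 the 20th and EXPA5 the 53rd. The bin was not placed on the assembly, so these counts are for the whole chromosome.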

How the data were processed

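Per the submitters' processing notes, the authors made the deposited log2 values with GCRMA, which corrects background, normalizes between arrays and summarises probe sets. No version is given in the sources used here. The 179 control probe sets were left out. Probe sets with a log2 value above 5 on at least 2 of 20 arrays were tested (11033; 6522 were not). limma 3.58.1 (R 4.3.3) fitted a mean for each of 10 groups. The replicate number was not a block, since no label ties equal numbers together and not every pair of groups had correlated deviations (r -0.34 to 0.15 over 6 pairs of tassel groups, 3 above 0.1). Class contrasts weighted lines equally, and Benjamini-Hochberg adjustment ran over all tested probe sets. The fit was tested on simulated data. SD is over the 4 arrays of a class and includes the difference between its lines, and SE is that of the fit. The number of arrays limits the precision.

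Gene names come from the platform annotation (1452 probe sets with 1 gene, 1 with several, 16102 with none) and RefSeq names for assembly Zm-B73-REFERENCE-NAM-5.0, matched by gene ID for 1060 of 1108 genes. Named are the 12 largest rises and the 12 largest falls among called genes alike in the 4 line pairs (14 genes with placeholder names only were passed over), up to 3 such genes of each of 37 lists, all measured benzoxazinoid, lignin, secondary wall cellulose and expansin genes, and the 3 genes of smallest p for the stage change. The members, lists and tests were chosen with earlier results of these data known. Alternatives covered the filter, normalization, covariates, blocks, single arrays and single lines.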

Additional observations from a re-analysis of the deposited data

Results flagged for a closer look

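Dixon's ratio set 1 array of 4 apart in 7 of 126 groups of 4 arrays over the named genes, and in the RNA amount. Chance picks about 1 in 20 groups of 4 independent values from 1 normal distribution. Here a group holds 2 lines with 2 arrays each, so that rate cannot be set against the 7. fdx2 was at 6.42 on RIL54 replicate 2, below the 7.27 to 7.36 of the other favorable arrays. lox3 was at 8.80 on RIL71 replicate 1, above the 7.12 to 7.39 of the other class arrays. xet1 was at 11.51 on RIL54 replicate 2, below the 12.77 to 13.03 of the other favorable arrays. glu1 was at 13.69 on the same array, above the 10.46 to 10.85 of the others. myb31 was at 4.73 on RIL99 replicate 1, below 5.60 to 5.63 on the others. On RIL71 replicate 1 ccr2 was at 6.36, above 4.06 to 4.40, and aox1 at 2.54, below 2.76 to 2.80, which is under the floor of 3. The label of RIL54 replicate 2 gives 417.25 ng of RNA, against 113.41 to 140.82 ng for the other 3. The calls of fdx2 and lox3 held when any 1 tassel array was left out. With the RNA amount as a covariate fdx2, lox3, xet1 and aox1 kept their calls.

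The class difference changed between the stages, by limma's test of that change, in 4 genes named by the rules above. Of these, ivr2, hsp22 and b3gat3 fall under the naming rule for the smallest p of that change, so passing the test is no added support. hsp18f, named after its values were seen, changed too (adjusted p = 0.0143). Silking minus tassel was -2.05 for myb42 (adjusted p = 0.0136), 5.82 for ivr2 (adjusted p = 5.67e-06), 4.37 for hsp22 (adjusted p = 0.00461) and 2.46 for b3gat3 (adjusted p = 5.67e-06).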

How the results depend on the processing

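The class count of 1573 at tassel was 14 with line means as samples, 40 with lines as a random effect, 733 without line RIL39 and 2499 without line RIL71, and 930 to 1861 when single arrays were left out. The fits on lines count few samples by construction. The count alike in 4 pairs (1084) ran from 663 to 1298 without single arrays. Leaving out single arrays gave 840 to 2778 for RIL39, 515 to 829 for RIL71, 622 to 960 for the class at silking and 55 to 206 for the stage change. The stage change was 138 without RIL118 and 31 with RIL71 alone as the class, an alternative chosen after seeing the data like the 5′ minus 3′ covariate. The cause of these changes was not tested. The replicate block gave 1445 for the class at tassel and moved no count by over 1.5 times. With it pep1 (adjusted p = 0.062), UMPS (0.0577) and CAF1 (0.0654) were not called. The share of higher calls was 57.2%, 42.9% with line means and 42.5% with the random effect. For the named genes, 0 of 1454 values under an alternative changed sign in a call, 254 lost a call and 11 gained one. With line means none of the 42 called named genes kept its call in limma, and with the random block 1 did, rip2. The filter at 6 cost 0 of the 42 calls, quantile normalization and centring 1 each (CAF1). Values near 2 to 3 are at the floor of the array and limit the size of differences. Few genes carry a name, so most calls could not be described.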

Other observations

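A set of nuclear genes for plastid gene expression and for transport into plastids and thylakoids was put together after the values were seen, so its counts are a description and support nothing by themselves. Of its 19 genes, all measured, 7 were called higher in the bin 6.06 class at emerging tassel and 0 lower. Among the 808 genes 7.3% were called higher and 6.44% lower. At an unadjusted limma p under 0.05, 12 of the 19 were higher and 0 lower, and the share of all genes at that threshold is not given here. Of the 19, 17 lay above 0. The median was 0.54, against -0.03 over all genes. sig2B (gene 541717, chromosome 1), a sigma factor of the plastid RNA polymerase, was at 7.99 and 8.20 in RIL39, 6.57 and 7.70 in RIL71, 6.98 and 7.22 in RIL99 and 5.54 and 6.01 in RIL54, a difference of 1.18 (SE 0.26, adjusted p = 0.00862). The sig2B call was lost without line RIL39 (0.70, adjusted p = 0.281) and without line RIL54 (0.52, adjusted p = 0.289). prpl35-1 (gene 542046, chromosome 9), a plastid ribosomal protein, was at 12.10 and 12.24 in RIL39 and 10.39 and 10.90 in RIL71, against 9.91 to 10.65 in the favorable lines. Its difference was 1.06 (SE 0.24, adjusted p = 0.0109). That call was lost without line RIL39 (0.30, adjusted p = 0.719) and without line RIL54 (0.82, adjusted p = 0.0739). tha9 (gene 541789, chromosome 5), a thylakoid protein translocation component, was higher by 0.83 (SE 0.12, adjusted p = 0.000453).

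The other called genes were bsd2, a chaperone-like protein needed for Rubisco, at 0.88 (adjusted p = 0.0341), rnc1 of plastid intron splicing at 0.56 (adjusted p = 0.0158), TATA, also listed as tha4, at 0.54 (adjusted p = 0.014), and CAF1 at 0.54 (adjusted p = 0.0495). Without any 1 of RIL39 replicate 2 and RIL99 replicate 1 the calls of bsd2, rnc1, TATA and CAF1 were lost, and bsd2 was not alike in the 4 pairs. A dimmer bsd2 probe set gave 0.65 and was not called (adjusted p = 0.0909). RIL39 carried more of each difference than RIL71, as with tha9 at 1.34 (adjusted p = 4.29e-05) against 0.32 (adjusted p = 0.281), where RIL39 minus RIL71 was 1.02 (adjusted p = 0.0017). The same difference was 1.53 for prpl35-1 (adjusted p = 0.0121) and 0.96 for sig2B (adjusted p = 0.113). At early silking 1 of the 19 was called, tha9 (0.57, adjusted p = 0.00798). The part of the lower 5′ signal of RIL39 in these values was tested only as a covariate, with which bsd2 (adjusted p = 0.0815) and CAF1 (0.0882) lost their calls.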
